A study of Rattus norvegicus with 232 samples.

Results

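Brain RNA of the stroke-prone spontaneously hypertensive rat, SHRSP/A3NCrl, was compared with that of its normotensive counterpart, WKY/NCrl. The members were every sample that the labels place in either strain, which gave 6 of 232 samples, 3 of each strain, in a panel of 74 strains. All were untreated young adult males, the tissue is labelled whole brain, and the study's methods add that a single side of each sagittally split brain was sequenced. Ribosomal RNA was depleted before strand-specific sequencing of the long RNA fraction. Both strains are inbred, so the animals of a strain are near-identical in genotype, and a strain difference here is a difference between 2 inbred lines. No blood pressure, stroke or brain lesion is recorded in the labels used here. The study's methods call the animals of a strain biological replicates, and p-values measure the spread between such animals.

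SHRSP was bred from the spontaneously hypertensive rat (SHR), which in turn was bred from Wistar Kyoto stock, and WKY is the usual control for both. SHRSP animals develop severe hypertension and, as adults, cerebral stroke, so their brains are studied for the vessel wall, salt and hormone pathways, oxidative stress and inflammation. Because the strains share an origin but have been bred apart, an expression difference can come with the disease trait or with any other locus that was fixed differently, and these cannot be told apart with a single line of each kind.

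The values are gene expression on a log2 scale, so a difference of 1 is a doubling, and they were compared in the table of RefSeq genes of processing version v7.1. This table has 20859 genes and 196 animals of 74 strains. For this pair it has columns of SHRSP replicates 2 and 3 and of WKY replicates 1, 2 and 3, called here SHRSP 2, SHRSP 3 and WKY 1 to 3, and SHRSP 1 has no column in it. The comparison is thus 2 animals against 3 and already stands without SHRSP 1, whose place was examined in the 2 earlier tables, v6 and v5, which hold all 6 animals. SHRSP 2, WKY 1 and WKY 2 carry batch 10 in the labels, SHRSP 3 batch 8 and WKY 3 batch 11, while the titles give batch 8 for all of these but WKY 3 (11). SHRSP 1 has batch 10 in the labels and batch 9 in its title.

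Library medians were 8.25 and 8.36 in SHRSP and 8.33 to 8.36 in WKY. At 52 genes that separate the remaining strains well, both SHRSP libraries correlated best with their own strain (r = 0.777 and 0.778), with SHR/OlaIpcv next (0.738 and 0.760), and the 3 WKY libraries correlated with their own strain at 0.858 to 0.962. SHR was not next in the earlier tables, where SHRSP 2 and 3 correlated with it at −0.16 and 0.14 over the genes of v6 and at −0.17 in both over those of v5. SHRSP 1 stood farther off in the earlier tables. Its correlation with the other SHRSP animals was 0.640 at 56 genes of v6, where SHRSP 2 and 3 reached 0.770 and 0.702, and 0.831 at 162 genes of v5, where they reached 0.917 and 0.901. In v5 the next strain was F344/NCrl for SHRSP 1 (0.802) and WKY/NCrl for SHRSP 2 and 3 (0.883 and 0.820), which correlated with F344/NCrl at 0.821 and 0.801. In the v5 table F344/NCrl replicate 2 was in turn closest to SHRSP (0.817, against 0.683 with its own strain). Whether the labels of these libraries are right was not tested, and the v6 and v5 values with SHRSP 1 rest on its label. Of 5 Y-linked genes in the v7.1 table, Eif2s3y, Kdm5d and Uty read 10.19 to 10.98 in all 5 libraries, Usp9y 4.91 to 5.85 and Ddx3y 2.59 to 3.12.

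Between the strains 164 of 20859 genes were called at 5% FDR (limma over all animals, Benjamini-Hochberg), or 0.786% of the genes tested. Of these, 74 were higher in SHRSP (0.355%) and 90 lower (0.431%), and the median difference of all genes was −0.02. With each library centred on its own median the split turned to 98 higher and 70 lower, so the balance of directions depended on the scaling. The called differences were moderate, with a median size of 0.76 and 37 above 1 on the log2 scale, and the smallest was 0.28. An unadjusted p under 0.05 was reached by 1546 genes (7.41%). Leaving out SHRSP 3 left 64 calls, SHRSP 2 72, WKY 2 90, WKY 3 108 and WKY 1 118. With the pair limited to its batch 10 animals (1 SHRSP against 2 WKY), all 164 genes kept their direction. These animals were among those by which the genes were called, so this was close to fixed in advance. Animals of the other strains stayed in that fit whatever their batch.

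Of the 164 genes, 91 had an informative symbol and 73 only a provisional one, and 42 lay above the table's median level. The 31 genes with a symbol and a level above the median comprised 17 that were higher and 14 that were lower in SHRSP, and the 12 largest of each direction are described first. In none of these 24 did the values of the strains overlap, which was close to fixed by choosing the largest calls between the same animals. The share of all genes without overlap was not counted. The test drew on the spread of all strains. In a fit of the 5 animals alone, 3 of the 24 were called (Cbr1, RT1-A1 and Rps25), and within batch 10 there were 8.

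**Figure D1:**
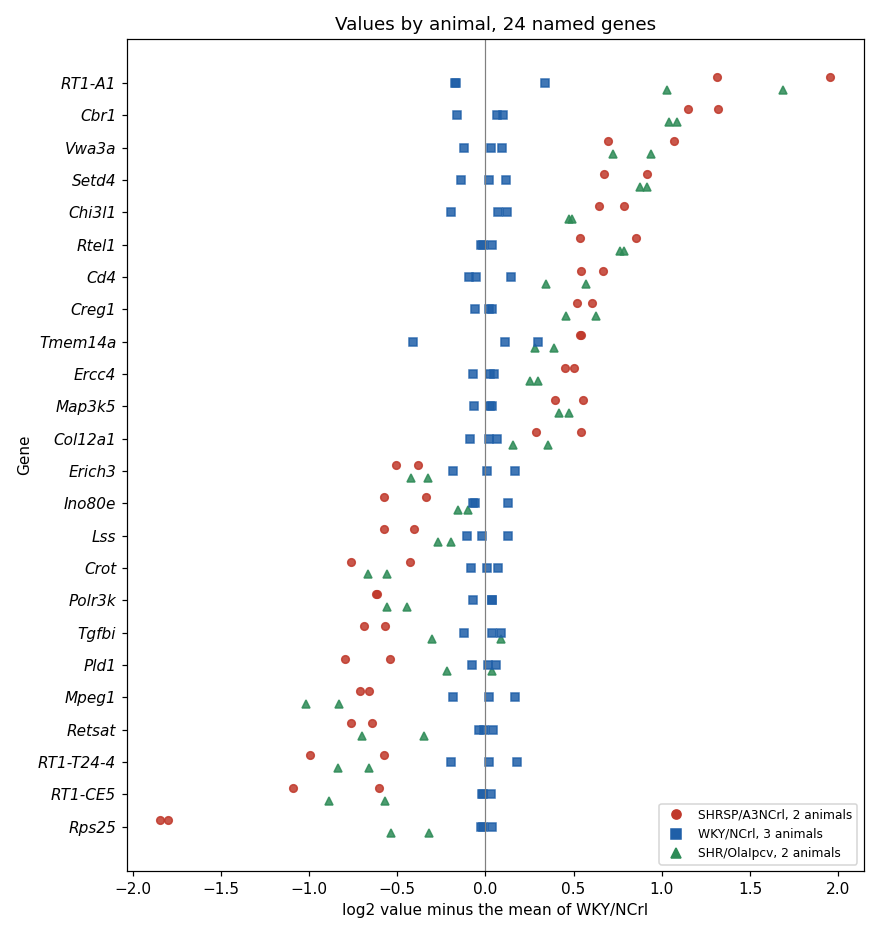
Each point is an animal's log2 value minus the WKY/NCrl mean of that gene, for SHRSP/A3NCrl (circles, 2 animals), WKY/NCrl (squares, 3 animals) and SHR/OlaIpcv (triangles, 2 animals) at 24 named genes in the v7.1 table. SHRSP lies to the right of WKY in the upper 12 genes and to the left in the lower 12, and SHR mostly falls on the SHRSP side, with exceptions at Rps25, Pld1, Tgfbi, Lss and Ino80e.

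The smallest adjusted p among the 12 higher genes was at Cbr1, a carbonyl reductase that detoxifies reactive carbonyls and reduces prostaglandins. Its values were 9.45 and 9.28 in SHRSP and 8.23, 8.19 and 7.97 in WKY. SHRSP was 1.23 ± 0.14 (SE) higher, which is 2.35-fold (adjusted p = 9.93e-11), and the call held in every alternative run on the v7.1 table. It was WKY that stood apart: its mean of 8.13 was below that of all other strains, whose range was 8.65 to 9.84, whereas 31 strains lay above SHRSP.

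Genes next to Cbr1 on chromosome 11 differed in the same way. Setd4, a SET-domain lysine methyltransferase (11, 32768282 to 32860749, minus strand), read 8.83 and 8.58 in SHRSP against 8.03, 7.93 and 7.77 in WKY, a difference of 0.79 ± 0.15 (adjusted p = 0.0002). The related reductase Cbr3 (11, 32860193 to 33016877, plus strand), named after its values were seen, read 6.67 and 6.25 against 5.92, 5.93 and 5.84 (0.57, adjusted p = 0.0484). The uncharacterised LOC120093083 differed by 1.13 (8.22 and 7.95 against 6.89, 7.09 and 6.89, adjusted p = 4.28e-07). All 4 lay in a window of 5 Mb with 39 tested genes, none of the others called, and WKY had the lowest mean of the 74 strains at each of the 4. Setd4 was not called without SHRSP 2 (0.67, adjusted p = 0.0976). Cbr3 lost its call without SHRSP 2 (0.36, adjusted p = 0.519), WKY 1 (0.114), WKY 2 (0.129) or WKY 3 (0.177). Cbr1 and Cbr3 are similar in sequence, and reads shared between them could be split by the counting. Positions are those of the reconstructed annotation deposited with version v7.1, whose genome build is not given in the sources used here.

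Several other genes that were higher in SHRSP serve repair, stress signalling and the tissue matrix. Ercc4, the nuclease subunit of nucleotide excision repair, read 10.16 and 10.21 in SHRSP and 9.73, 9.75 and 9.63 in WKY (0.48 ± 0.08, adjusted p = 1.35e-05). The SHRSP mean of Ercc4 was above that of all 73 other strains. It was called without any single animal, but not in a fit of the 5 animals (adjusted p = 0.22) or within batch 10 (0.0632), and in v6 its difference was 0.17 (adjusted p = 0.271). Rtel1, a DNA helicase that protects telomeres, read 10.30 and 9.98 against 9.42, 9.48 and 9.43 (0.70, adjusted p = 0.000209). Map3k5, the kinase ASK1 of oxidative stress signalling, read 10.68 and 10.84 against 10.32, 10.31 and 10.22 (0.47, adjusted p = 0.0148), and here WKY was the lowest of all strains. Col12a1, a chain of collagen XII, read 10.94 and 10.68 against 10.46, 10.31 and 10.41 (0.41, adjusted p = 0.0331), with the SHRSP mean the highest of the panel. Calls were lost without SHRSP 2 at Rtel1 (0.54, adjusted p = 0.171), Map3k5 (0.0597) and Col12a1 (0.29, adjusted p = 0.456). Map3k5 was also not called without SHRSP 3 (0.37) or WKY 3 (0.088), nor Col12a1 without WKY 2 (0.24) or WKY 3 (0.0798).

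Among the remaining higher genes were secreted and surface proteins of glia and myeloid cells. Chi3l1, a chitinase-like glycoprotein released by reactive astrocytes, read 10.45 and 10.31 in SHRSP against 9.74, 9.79 and 9.47 in WKY (0.71, adjusted p = 0.00112), but was not called without SHRSP 2 (0.64, adjusted p = 0.117). Cd4, the co-receptor for MHC class II, which in the rat is carried by macrophages as well as T cells, read 9.15 and 9.02 against 8.43, 8.63 and 8.39 (0.60, adjusted p = 8.63e-05), and was not called in a fit of the 5 animals (0.158). Creg1, a lysosomal glycoprotein, read 9.33 and 9.41 against 8.75, 8.83 and 8.85 (0.56, adjusted p = 0.00299), with WKY lowest of all strains, and missed the threshold without SHRSP 3 (0.52, adjusted p = 0.15). Vwa3a, a protein with a von Willebrand factor A domain, differed by 0.88 (8.94 and 8.56 against 7.75, 7.96 and 7.90, adjusted p = 0.000102) and lost its call without SHRSP 2 (0.70, adjusted p = 0.12). The membrane protein Tmem14a had the widest WKY spread, with 9.54 and 9.55 against 9.30, 8.59 and 9.12 (0.54, adjusted p = 0.00299). Without WKY 2 that difference was 0.33 (adjusted p = 0.402), and it was not called without SHRSP 2 (0.0759) or SHRSP 3 (0.0964) either.

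The genes lower in SHRSP included enzymes of lipid metabolism. Pld1, phospholipase D1, which makes phosphatidic acid, read 9.26 and 9.51 in SHRSP and 9.98, 10.07 and 10.11 in WKY (−0.67 ± 0.13, adjusted p = 0.000224). Its SHRSP mean of 9.38 was below all other strains, which ran from 9.71 to 10.09, and SHR, at 9.84 and 10.09, did not share the low level. Lss, lanosterol synthase of the cholesterol pathway, read 10.44 and 10.26 against 10.73, 10.97 and 10.82 (−0.49, adjusted p = 0.00449), again the lowest mean of the panel, while in v6 the difference was −0.14 with SHRSP 1 (adjusted p = 0.609) and −0.32 without it (adjusted p = 0.269). Retsat, retinol saturase, read 10.72 and 10.60 against 11.36, 11.33 and 11.40 (−0.70, adjusted p = 0.000371). Crot, the peroxisomal carnitine octanoyltransferase, read 9.50 and 9.84 against 10.18, 10.27 and 10.34 (−0.59, adjusted p = 0.0125). Without SHRSP 2 the calls at Pld1 (−0.54, adjusted p = 0.138) and Crot (−0.43, adjusted p = 0.399) were lost, and without SHRSP 3 those at Lss (−0.40, adjusted p = 0.281) and Retsat (−0.64, adjusted p = 0.0736). Crot also missed the threshold without WKY 2 (0.0583) or WKY 3 (0.0757), and Lss without WKY 2 (0.081).

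Polr3k, a subunit of RNA polymerase III, varied little within each strain, with 9.92 and 9.91 in SHRSP against 10.57, 10.57 and 10.46 in WKY (−0.62 ± 0.10, adjusted p = 8.14e-06). It was called without any single animal of the pair and within batch 10 (−0.65, adjusted p = 0.00483), but not in a fit of the 5 animals (0.0931). It lies on chromosome 3 (168982846 to 168989195, plus strand), not far from Rtel1 (168424691 to 168465610, plus strand), which differed in the opposite direction. Tgfbi, a matrix protein induced by TGF-beta, read 8.36 and 8.24 against 8.81, 9.02 and 8.97 (−0.63, adjusted p = 0.00232), and was not called without SHRSP 3 (−0.57, adjusted p = 0.156). Mpeg1, the pore-forming perforin-2 of macrophages, read 9.99 and 9.94 against 10.67, 10.82 and 10.47 (−0.69, adjusted p = 0.0344). That call was lost without SHRSP 2 (0.241), SHRSP 3 (0.297), WKY 1 (0.107) or WKY 2 (0.273), and with centred libraries (0.0668).

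Ino80e, a subunit of the INO80 chromatin remodeller, differed by −0.46 (9.92 and 9.69 against 10.19, 10.39 and 10.20, adjusted p = 0.0348). Erich3, a glutamate-rich protein, differed by −0.45 (10.61 and 10.73 against 11.13, 11.28 and 10.93, adjusted p = 0.0484). Both were near the threshold. Ino80e was not called when any single animal was left out (adjusted p 0.0546 without WKY 1, 0.06 without WKY 3, 0.0654 without SHRSP 2, 0.311 without WKY 2 and 0.497 without SHRSP 3). Erich3 kept its call only without WKY 3 among these (0.14 without WKY 1, 0.186 without SHRSP 3, 0.387 without SHRSP 2 and 0.472 without WKY 2).

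Rps25, a protein of the small ribosomal subunit, showed the largest difference of this group in v7.1 and no call in the earlier tables. It read 10.14 and 10.18 in SHRSP and 11.96, 12.02 and 11.97 in WKY (−1.82 ± 0.30, 3.54-fold lower, adjusted p = 1.73e-05), and the call held in each v7.1 alternative. In the v6 table SHRSP 2 and 3 read 11.61 and 11.36 and WKY 11.68 to 11.77 (−0.32 with SHRSP 1, adjusted p = 0.512, and −0.24 without it), and in v5 the difference was 0.04 (adjusted p = 0.966). Ribosomal protein genes have many processed copies, and how the tables divided reads among them was not tested.

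A further set of genes for immune receptors was picked after the values were seen. Several of those higher in SHRSP lie on chromosome 1 and belong to the leukocyte receptor complex, a cluster of paired activating and inhibitory receptors. Only called members were picked, and the members tested were not counted. The window of 5 Mb with Lilrb2 and Lilrb3a had 3 of 40 genes called. That with Lair1 and Gp6 had 2 of 65, where 0.786% of all genes were called. The inhibitory receptor Lilrb3l read 7.46 and 7.34 in SHRSP and 6.37, 6.32 and 5.93 in WKY (1.19 ± 0.19, adjusted p = 8.14e-06), and was called in every v7.1 alternative that held it. Lair1, an inhibitory receptor for collagen, read 6.96 and 6.97 against 6.13, 6.02 and 6.02 (0.91, adjusted p = 0.000172), with WKY below all other strains, and was called without any single animal. Lilrb2 (4.28 and 4.12 against 3.48, 3.52 and 3.35), Lilrb3a (6.44 and 6.30 against 5.83, 5.75 and 5.44) and Gp6, the platelet collagen receptor (5.66 and 5.91 against 5.24, 4.89 and 5.14), differed by 0.75, 0.69 and 0.70 (adjusted p = 0.0139, 0.017 and 0.0185). These 3 were not called without SHRSP 2 (0.302, 0.31 and 0.0673) or SHRSP 3 (0.102, 0.126 and 0.399), nor Lilrb2 and Lilrb3a without WKY 3 (0.0825 and 0.204) or Gp6 without WKY 2 (0.223). The Lilr genes are close copies of each other, so the share of each is uncertain.

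Elsewhere in the genome, immune genes of this added set differed in both directions. Slc11a1, the metal transporter Nramp1 of phagosomes, read 7.00 and 6.84 in SHRSP against 6.27, 6.05 and 6.04 in WKY (0.80, adjusted p = 0.0124), the highest strain mean of the panel. Cd274, which encodes the checkpoint ligand PD-L1, read 7.45 and 7.48 against 6.83, 6.77 and 6.86 (0.65, adjusted p = 0.00696), and there WKY was the lowest strain. Il12rb1, the shared receptor chain for interleukins 12 and 23, was lower at 4.73 and 4.90 against 6.50, 6.06 and 5.93 (−1.35, adjusted p = 0.00526), the lowest mean of the panel. Micb was lower as well, at 4.20 and 4.08 against 4.81, 5.26 and 5.13 (−0.93, adjusted p = 0.000845). Slc11a1 and Cd274 were not called without SHRSP 2 (0.288 and 0.108) or SHRSP 3 (0.103 and 0.163), and Slc11a1 also not without WKY 2 (0.0776) or WKY 3 (0.0688). Il12rb1 missed the threshold without SHRSP 2 (0.171), SHRSP 3 (0.0736) or WKY 1 (0.0743), and Micb without SHRSP 3 (0.0876).

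Fcgr2a, an Fc receptor for IgG, Cd300a, an inhibitory receptor, Cd244, a receptor of NK cells, and Ms4a6b, a tetraspan membrane protein of leukocytes, were each lower in SHRSP by 0.55 to 0.85 on the log2 scale. Fcgr2a read 7.61 and 7.50 against 8.06, 8.14 and 8.13 (adjusted p = 0.0281), and leaving out any single animal ended its call (0.0604 to 0.359). Cd300a (adjusted p = 0.017) was not called without SHRSP 3 (0.428), WKY 1 (0.15) or WKY 2 (0.0669). Ms4a6b (adjusted p = 0.00406) was not called without SHRSP 3 (0.297) or WKY 2 (0.138). Cd244 (adjusted p = 0.0116) was not called without SHRSP 2 (0.288), SHRSP 3 (0.0975) or WKY 2 (0.083), and in v6 its difference was 0.04 (adjusted p = 0.938). In bulk tissue, fewer cells of a type and less RNA per cell cannot be told apart.

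Among the pathway and marker lists, most calls in the v7.1 table, though not in v6 or v5, fell in that of the major histocompatibility complex (MHC). It is called RT1 in the rat, and its class I and class II proteins present peptides to T cells. Of 44 MHC and antigen processing genes tested, 9 were called lower in SHRSP (RT1-N2, RT1-A3, RT1-CE15, RT1-CE10, RT1-Bb, RT1-T24-1, RT1-CE5, RT1-T24-4 and the peptide transporter Tap1), 1 was called higher (RT1-A1) and 34 were not called, where 0.786% of all genes were called. The median difference of the list was −0.36, against −0.02 for all genes, and 35 of 44 were below 0, as were 55.2% of all genes. The mean over the list was 6.55 and 6.14 in SHRSP and 6.66, 6.79 and 6.74 in WKY, and 1 strain of the panel had a higher mean than WKY. SHRSP 3 was the lower animal. Without it 2 members were called and the median was −0.20, without SHRSP 2 there were 10 calls and a median of −0.55, and within batch 10 there was 1 call, with a median of −0.19. Centring the libraries gave 10 calls and a median of −0.32, and a fit of the 5 animals gave 4 calls. Over all genes, the shares called with and without SHRSP 1 were 1.07% and 0.66% in v6 and 1.67% and 1.3% in v5. In v6, 3 of 18 members were called with SHRSP 1 and 1 without it, all lower. In v5 there were 4 of 15 with SHRSP 1 (3 lower, 1 higher) and 3 without it (2 lower, 1 higher). The medians were −0.32 and −0.23 in v6 and −0.22 and −0.19 in v5.

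RT1-N2, a nonclassical class I gene, read 4.24 and 4.72 in SHRSP and 5.77, 6.03 and 6.13 in WKY (−1.49 ± 0.27, 2.82-fold lower, adjusted p = 0.000102). It was WKY that was unusual here, since 69 of the other 72 strains were nearer to SHRSP. Without SHRSP 2 the adjusted p was 0.0752. The class I genes RT1-CE15 (5.52 and 4.96 against 6.51, 6.69 and 6.80, −1.42, adjusted p = 8.14e-06) and RT1-A3 (6.48 and 5.74 against 7.79, 7.55 and 7.34, −1.45, adjusted p = 6.05e-05) were lower by a similar amount. RT1-CE5 (9.01 and 8.52 against 9.60, 9.64 and 9.59, −0.85, adjusted p = 0.00637) and RT1-T24-4 (7.78 and 7.37 against 8.54, 8.16 and 8.38, −0.79, adjusted p = 0.00735) were lower as well. In v6 the difference of RT1-T24-4 was −0.18 (adjusted p = 0.576). Without SHRSP 3 the calls at RT1-A3 (0.147), RT1-CE5 (0.422) and RT1-T24-4 (0.414) were lost, and that at RT1-T24-4 also without WKY 1 (0.0862).

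RT1-A1, a classical class I gene, went the other way, with 10.38 and 11.02 in SHRSP against 8.90, 8.90 and 9.40 in WKY (1.63 ± 0.29, 3.10-fold, adjusted p = 9.11e-05), and SHRSP had the highest mean of all strains. SHR resembled it at 10.10 and 10.75. The call was lost without SHRSP 3 (1.31, adjusted p = 0.11), and in the v6 table the direction was reversed (−0.40 with SHRSP 1, adjusted p = 0.332, and −0.31 without it, adjusted p = 0.852), while v5 gave 0.66 with SHRSP 1 (adjusted p = 0.0144) and 0.90 without it (adjusted p = 0.000609). RT1 class I genes are near-identical copies whose number differs between haplotypes, so the division of reads among them is uncertain and single values here should be read as those of an annotated locus. B2m, the invariant light chain of class I, read 13.03 and 13.17 against 13.22, 13.33 and 13.37 and was not called (−0.21, adjusted p = 0.854).

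**Figure D2:**
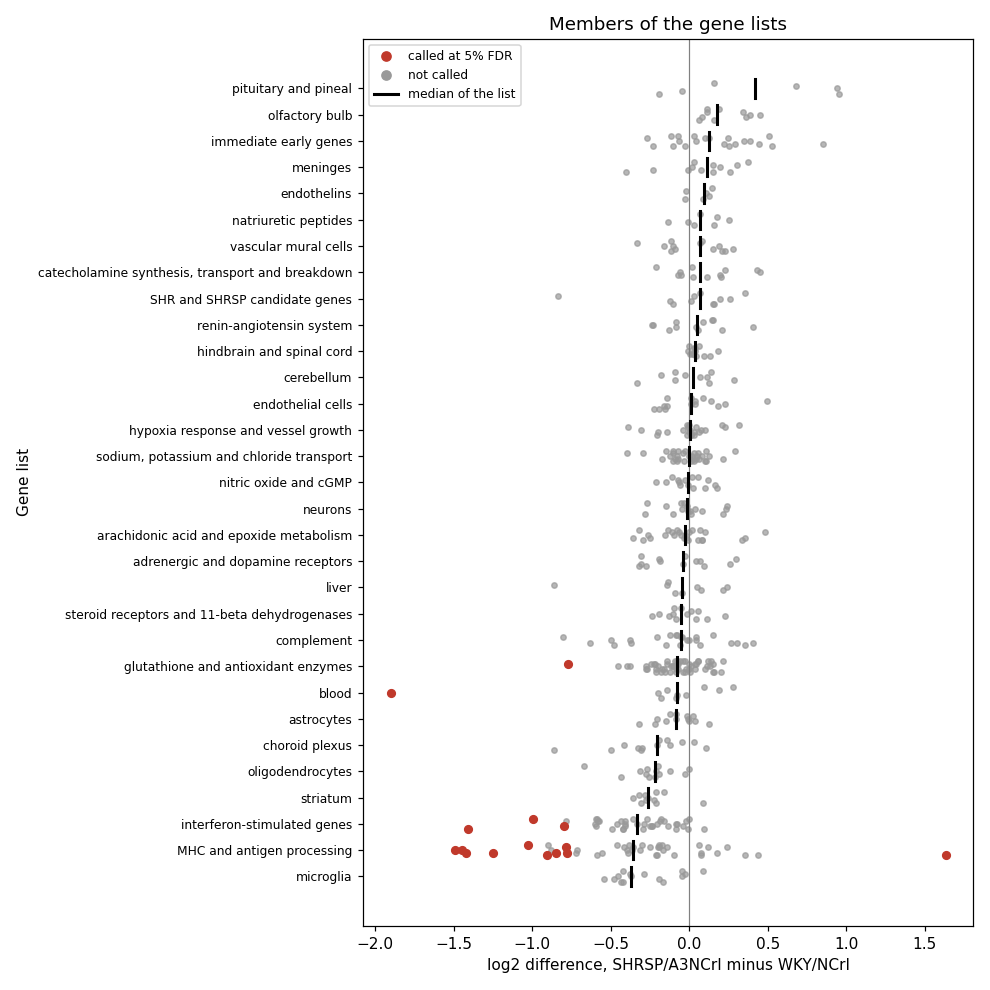
Each point is a gene of a list, placed by its log2 difference (SHRSP/A3NCrl minus WKY/NCrl, v7.1 table), with called genes (5% FDR) as larger points and the list median as a bar, for 31 pathway and cell marker lists ordered by median. The lists of microglia (−0.37), MHC and antigen processing (−0.36) and interferon-stimulated genes (−0.34) have the lowest medians, and single calls stand far from the rest of the blood and glutathione lists.

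Genes induced by interferon make proteins that restrict viruses. Of 39 such genes 3 were called, Ifi44l, Isg15 and Mx1, all lower, where 0.786% of all genes were called, and 38 of 39 differences were below 0, where 55.2% of all genes were. The list median was −0.34, or −0.30 with centred libraries, and 19 members had an unadjusted p under 0.05, as had 7.41% of all genes. The mean over the list was 6.99 and 6.94 in SHRSP and 7.27, 7.33 and 7.41 in WKY, with no overlap. The WKY mean (7.34) was the highest of the 74 strains, the others reaching 7.28 at most, whereas SHRSP (6.97) had 41 strains above it.

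Ifi44l read 4.81 and 4.83 in SHRSP and 6.00, 6.49 and 6.20 in WKY (−1.41 ± 0.24, 2.66-fold lower, adjusted p = 4.96e-05) and was called in every v7.1 alternative that held it. Isg15, the ubiquitin-like modifier, read 5.84 and 5.55 against 6.65, 6.68 and 6.74 (−1.0, adjusted p = 0.00692), and the call was lost without SHRSP 3 (−0.86, adjusted p = 0.27). WKY had the highest strain mean at both genes. Mx1, a dynamin-like antiviral GTPase, read 7.00 and 6.70 against 7.47, 7.67 and 7.79 (−0.80, adjusted p = 0.0407). When single animals were left out it was called only without WKY 1 (0.118 without SHRSP 2, 0.457 without SHRSP 3, 0.157 without WKY 2 and 0.204 without WKY 3). Members not called included Ifit3 (5.62 and 5.71 against 6.20, 6.48 and 6.67, adjusted p = 0.203) and Oasl2 (6.43 and 6.48 against 6.89 to 7.15, adjusted p = 0.0563), while the transcription factor Irf1 (8.21 and 7.92 against 8.12, 7.78 and 8.03) was the sole member above 0. In v6, 7 of 25 members were called with SHRSP 1 (1.07% of all genes) and 2 without it (0.66%), all lower, with medians of −0.33 and −0.28. In v5, 7 of 23 were called with SHRSP 1 (1.67% of all genes) and 3 without it (1.3%), all lower. The 3 members called in v7.1 lie below the table's median level, so a filter by that level drops them. The median within batch 10 in v7.1 was −0.28, with 1 call, 1 was called without SHRSP 3, and among genes above the table median none was.

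**Figure D3:**
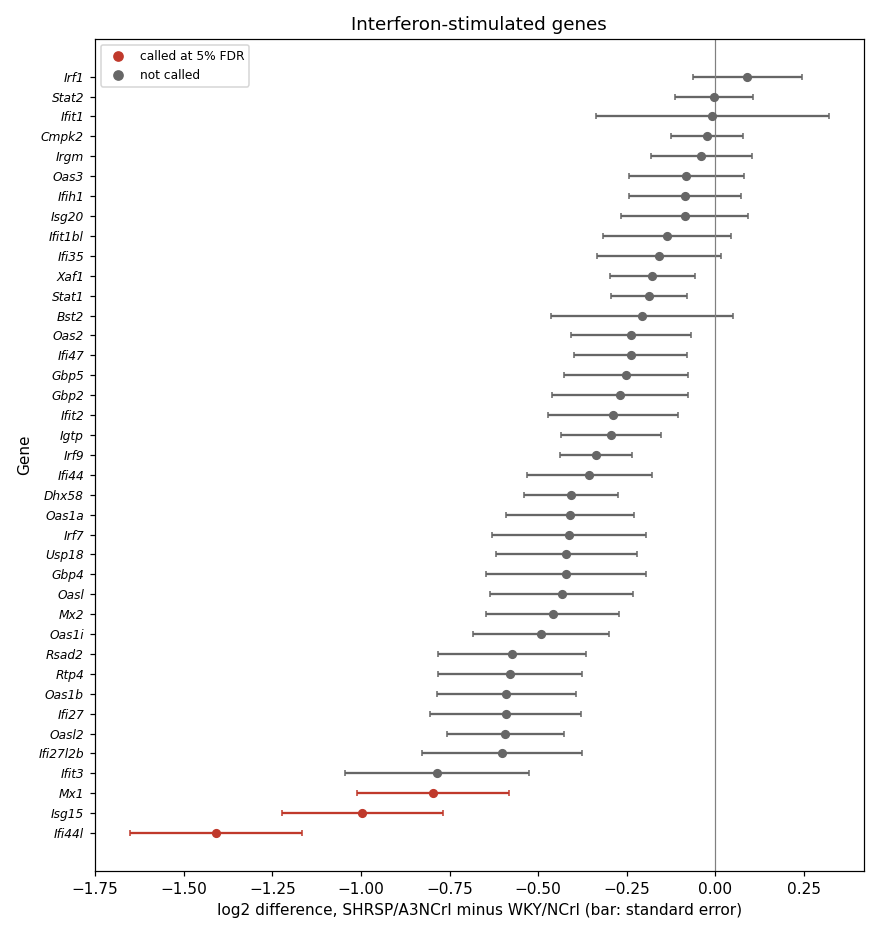
Each row is an interferon-stimulated gene and each point its log2 difference (SHRSP/A3NCrl minus WKY/NCrl, v7.1 table) with the standard error of the limma fit as a bar, for 39 genes with the called ones marked. All but Irf1 lie below 0, from −1.41 at Ifi44l, and Ifi44l, Isg15 and Mx1 are the 3 called.

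Most markers of microglia, the resident macrophages of the brain, had differences of the same sign as these lists, without passing the test. Of 15 markers none was called by limma, where 0.786% of all genes were. An unadjusted p under 0.05 was reached by 8 of the markers, where 7.41% of all genes had one. The differences of 14 were below 0 (55.2% of all genes), and the list median was −0.37. In v6, 1 of 10 was called lower both with and without SHRSP 1 (1.07% and 0.66% of all genes called). In v5 there were 2 of 10 with it (1.67% of all genes) and none without it (1.3%). The mean over the markers was 9.08 and 8.91 in SHRSP and 9.26, 9.34 and 9.22 in WKY, WKY being second highest of the 74 strains. Tyrobp, the adaptor of microglial receptors, read 7.73 and 7.82 against 8.22, 8.33 and 8.40 (−0.54, adjusted p = 0.0554), and Aif1 read 8.54 and 8.74 against 9.07, 9.09 and 9.03 (−0.42, adjusted p = 0.387). The lowest marker in any animal was Cd68 at 5.33. The median of the markers was −0.16 without SHRSP 3 and −0.19 within batch 10, and without SHRSP 1 it was −0.24 in v6 and −0.21 in v5. The part of microglial RNA in the lower MHC, interferon and macrophage genes was not tested.

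Acsm3, a medium-chain acyl-CoA synthetase once named SA and long studied in hypertensive rats, was among the largest differences in a gene with an assigned function (named after its values were seen). It read 5.51 and 6.23 in SHRSP and 7.48, 7.69 and 7.34 in WKY (−1.64 ± 0.36, 3.11-fold lower, adjusted p = 0.0046). SHR was low as well at 5.64 and 5.41, and WKY was near the top of the panel, with 2 strains above it, so the low level was the more common state. The call was lost without SHRSP 2 (−1.28, adjusted p = 0.332). In v6 the difference was −1.62 with SHRSP 1 (adjusted p = 0.000262) and −1.55 without it (adjusted p = 0.00522). Acsm3 (1, 174133006 to 174162346, plus strand) lies near Vwa3a (1, 175217658 to 175382900, plus strand), which was higher in SHRSP.

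Of 11 candidate genes from hypertension and stroke research none was called (limma, 1 with an unadjusted p under 0.05), where 0.786% of all genes were called and 7.41% had such a p, and their median difference was 0.07. Endog, a mitochondrial endonuclease linked to cardiac mass, came closest with 6.66 and 6.25 in SHRSP and 7.22, 7.37 and 7.28 in WKY (−0.84 ± 0.23, adjusted p = 0.0567), without overlap and with the lowest mean of the panel. Endog passed the threshold in only 3 of the 13 v7.1 alternatives that held it. These were the title batch as a covariate (0.0403), centred libraries (0.0484) and a replicate block, described below. Its difference ran from −1.05 to −0.63 over the 13 and was −0.63 within batch 10. Ephx2, the soluble epoxide hydrolase that breaks down vasodilator lipids, read 7.83 and 8.18 against 7.61, 7.74 and 7.61 (0.35, adjusted p = 0.889), below SHR at 8.79 and 8.66. Ndufc2, a complex I subunit linked to stroke in SHRSP, read 11.31 and 11.29 against 11.20, 10.91 and 11.20 (0.19, adjusted p = 0.849). Ogn, the matrix proteoglycan mimecan, read 10.84 and 10.74 against 10.41, 10.46 and 10.72 (0.26, adjusted p = 0.908). The differences at Stim1 (−0.10), Gstm1 (−0.13), Cd36 (0.15), Corin (0.15), Nppa (0.03), Add1 (0.07) and S1pr1 (0.01) did not pass the test, and their adjusted p ran from 0.901 to 0.995. As at Endog, the values of the strains did not overlap at Gstm1, Ndufc2, Ephx2, Ogn and Add1, none of them called. The share of all genes without overlap was not counted, so this is not read as a result about the candidates.

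The lists for blood pressure control had no call in v7.1 either, where 0.786% of all genes were called. None of 12 renin-angiotensin genes, 7 natriuretic peptide genes, 6 endothelin genes, 15 nitric oxide and cGMP genes, 12 catecholamine genes, 33 sodium, potassium and chloride transporters or 13 steroid receptor genes was called (limma, 2 with an unadjusted p under 0.05), with medians between −0.05 and 0.09. Nor was any of 13 adrenergic and dopamine receptor genes called (limma, 2 with an unadjusted p under 0.05, median −0.04). In the v6 and v5 tables, with or without SHRSP 1, none of these lists had more than 1 call. The shares of all genes called with and without SHRSP 1 were 1.07% and 0.66% in v6 and 1.67% and 1.3% in v5. Angiotensinogen (Agt) read 12.50 and 12.10 in SHRSP and 12.06, 12.66 and 12.57 in WKY. Over all 28 lists without a call, 36 of 374 genes (9.63%) had an unadjusted p under 0.05, where 7.41% of all genes had. With 2 animals against 3, this does not show that the levels of these genes were alike.

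Glutathione and antioxidant genes gave 1 call in 55 and blood genes 1 in 10, and single calls in lists of this size are read only as single genes (0.786% of all genes were called). Gsta3, a glutathione S-transferase with low values in this table, read 2.34 and 2.20 in SHRSP and 2.98, 3.15 and 2.99 in WKY (−0.77 ± 0.17, adjusted p = 0.00536), with WKY above all other strains. It was not called without SHRSP 2 (0.0552), SHRSP 3 (0.212) or WKY 2 (0.0535). The blood gene called was the haemoglobin gene Hba-a3, at 5.99 and 5.92 against 7.82, 8.13 and 7.63 (−1.90 ± 0.31, adjusted p = 1.35e-05). Hba-a1 (14.19 and 13.18 against 13.69, 14.03 and 13.59) and Hbb (14.58 and 14.18 against 14.21, 14.61 and 14.73) overlapped between the strains. In v6 the difference of Hba-a3 was of the opposite sign (0.29 with SHRSP 1 and 0.52 without it). Haemoglobin genes are near-identical copies, so the share of each is uncertain.

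Genes named after their values were seen included Hpgds, the prostaglandin D synthase of blood-derived and microglial cells, at 5.25 and 4.99 in SHRSP against 6.27, 6.11 and 6.06 in WKY (−1.03, adjusted p = 0.01). It was not called without SHRSP 2 (0.0654), SHRSP 3 (0.286) or WKY 1 (0.0681), and in v6 its difference was −0.38 (adjusted p = 0.387). Colq, the collagen tail that anchors acetylcholinesterase, read 6.19 and 5.86 against 6.83, 6.90 and 6.81 (−0.82, adjusted p = 0.000331), with WKY above all strains, and missed the threshold without SHRSP 3 (0.163). Pus7l, a pseudouridine synthase homologue, read 6.99 and 7.22 against 7.73, 7.90 and 7.86 (−0.73 ± 0.12, adjusted p = 6.28e-06), again with WKY on top, and was called without any single animal. Hmgb2, a chromatin protein of dividing cells that the rule named as a called gene of a window, read 6.03 and 5.73 against 7.07, 7.22 and 6.96 (−1.20, adjusted p = 0.00702), and missed the threshold without SHRSP 2 (0.0515), SHRSP 3 (0.263) or WKY 2 (0.0606). In v6 its difference was −1.64 with SHRSP 1 (adjusted p = 4.74e-05) and −2.13 without it (adjusted p = 3.4e-07), and in v5 it was −0.22 (adjusted p = 0.624).

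The largest difference at a plausible level belonged to LOC120097345, a locus without an assigned function, at 7.39 and 7.39 in SHRSP against 10.93, 11.25 and 10.90 in WKY (−3.64 ± 0.43, adjusted p = 4.13e-10). SHR was low too at 7.02 and 7.56. LOC108351070 is listed at 36.88 and 32.89 in SHRSP and at 4.39 to 5.60 in WKY, which is beyond what the log2 of a read count can reach, and its difference is not read as expression.

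The other strains showed which member of the pair stood apart. Among the 164 called genes the SHRSP mean was outside the range of the other 72 strains at 35 (21.3%, against 2.52% of all genes) and the WKY mean at 31 (18.9%, against 1.17%). SHR, the closest relative of SHRSP in the panel, was nearer to SHRSP than to WKY at 123 of the 164 genes (75%), where 59.5% of all genes were. Choosing genes for a large difference between the pair favours those at which either strain is extreme, so these shares are a description. Of the named genes, WKY was the lowest strain at Cbr1, Setd4, Cbr3, LOC120093083, Map3k5, Tmem14a, Creg1, Lair1, Gp6 and Cd274, and the highest at Ifi44l, Isg15, Gsta3, Colq, Pus7l and Micb. SHRSP was the highest at RT1-A1, Ercc4, Col12a1 and Slc11a1, and the lowest at Pld1, Lss, Il12rb1 and, among those not called, Endog. Some of these margins were narrow. WKY had means of 6.229 at Ifi44l and 6.690 at Isg15, where the next strain reached 6.223 and 6.670. At Lss the SHRSP mean was 10.351 and the next strain's 10.363.

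**Figure D4:**
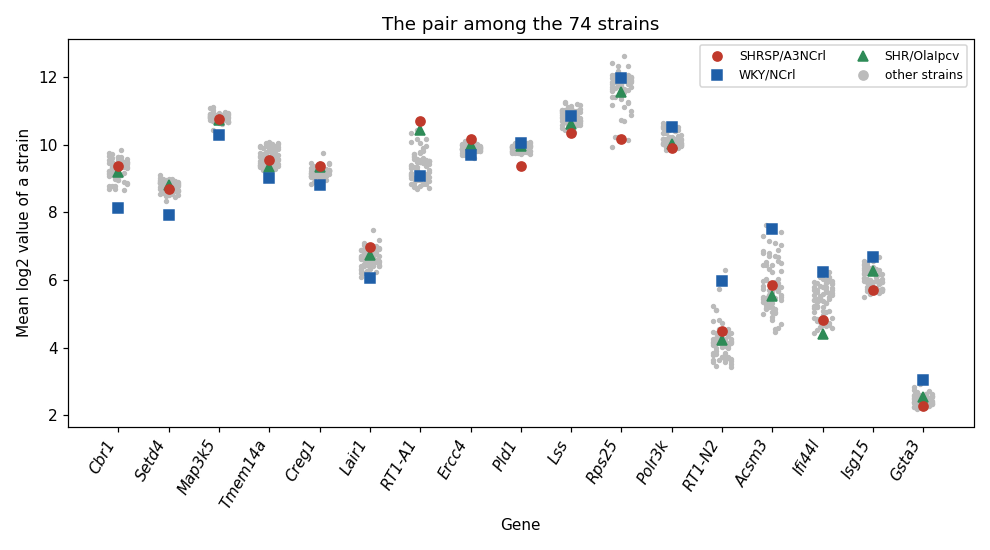
Each small point is the mean log2 value of a strain at 17 named genes of the v7.1 table, with SHRSP/A3NCrl (circle), WKY/NCrl (square) and SHR/OlaIpcv (triangle) marked among the 74 strains. WKY lies below the other strains at Cbr1, Setd4, Map3k5, Tmem14a, Creg1 and Lair1 and above them at Ifi44l, Isg15 and Gsta3. SHRSP lies above the other strains at RT1-A1 and Ercc4 and below them at Pld1 and Lss. The margins at Ifi44l, Isg15 and Lss are narrow.

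The earlier tables allowed the comparison to be made with and without SHRSP 1. In v6 (18644 genes) 200 genes were called with all 6 animals (1.07%), 89 higher (0.477%) and 111 lower (0.595%). Without SHRSP 1 they were 123 (0.66%), 63 higher (0.338%) and 60 lower (0.322%). The sets shared 104 genes, or 52% of the first and 84.6% of the second, all in the same direction. In v5 (18309 genes) 305 genes were called with all 6 animals (1.67%), 126 higher (0.688%) and 179 lower (0.978%), and 238 without SHRSP 1 (1.3%), 131 higher (0.715%) and 107 lower (0.584%), with 180 shared (59% and 75.6%). Of the 164 genes called in v7.1, 72 could be found by symbol in v6. With SHRSP 1, 68 of the 72 had the same direction and 47 were called, and without it 69 and 49. In v5, 62 were found, 58 with the same direction with SHRSP 1 and 60 without it, and 44 and 45 were called. None was called in the opposite direction in either table. The tables were made from the same animals, so this shows how the calls depend on the processing and is no independent repeat.

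At several genes the v6 value of SHRSP 1 was among or close to those of WKY, away from the other SHRSP animals. At Pld1 SHRSP 1 read 9.97, SHRSP 2 and 3 read 9.35 and 9.63, and WKY 10.12 to 10.24. At Slc11a1 it read 6.57, with 7.42 and 7.19 in SHRSP 2 and 3 and 6.34 to 6.54 in WKY. At Col12a1 it read 10.48, with 11.00 and 10.75 against 10.39 to 10.53, and at Trim55, a muscle-type ubiquitin ligase, 4.36, with 3.87 and 3.89 against 4.35 to 4.61. Taking SHRSP 1 out moved the v6 difference of Pld1 from −0.54 to −0.70, of Slc11a1 from 0.63 to 0.88, of Col12a1 from 0.27 (adjusted p = 0.183) to 0.40 (adjusted p = 0.0369) and of Trim55 from −0.44 (adjusted p = 0.117) to −0.60 (adjusted p = 0.0311). At other genes SHRSP 1 lay with its strain. At Acsm3 the SHRSP animals read 5.44, 5.29 and 5.99 against 7.11 to 7.34, at Vwa3a 8.63, 8.86 and 8.51 against 7.79 to 7.94, and at Polr3k 9.91, 10.11 and 10.08 against 10.62 to 10.76. What sets SHRSP 1 apart was not tested.

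**Figure D5:**
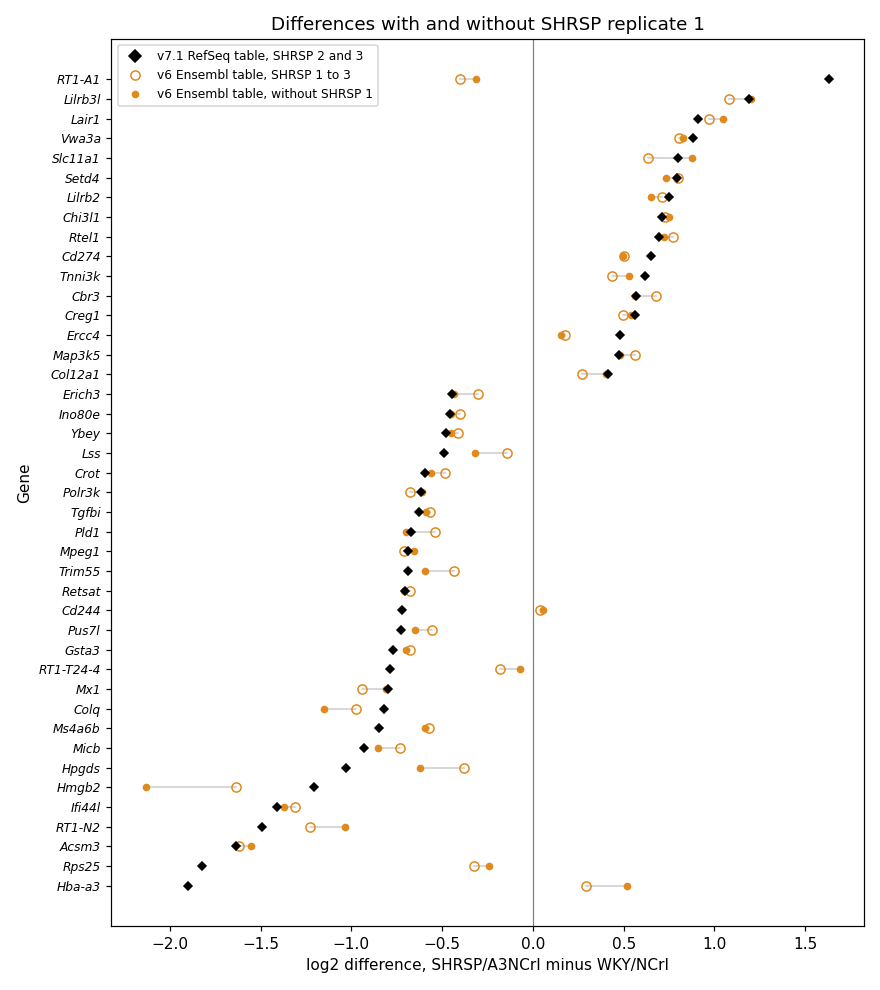
Each row is a named gene that was called in v7.1 and found in v6, 42 in all, with its log2 difference (SHRSP/A3NCrl minus WKY/NCrl) in v7.1 and in v6 with and without SHRSP 1. The v6 sign is the same as in v7.1 at 39 of the 42 both with and without SHRSP 1, the exceptions being RT1-A1, Hba-a3 and Cd244, and 31 were called with SHRSP 1 and 29 without it.

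Called genes were spread over the genome, and a few windows held several. Of the 164, 144 had a known position. Of 484 windows of 5 Mb with at least 10 tested genes 97 held a call, and 7 windows with 3 or more calls held 29 called genes. Over all genes 0.786% were called, and a ranking by share favours windows with few tested genes, where 1 or 2 calls suffice. The highest shares were in a window of chromosome 8 with 2 of 16 genes (LOC108351754 and LOC102554337, both lower), in the Cbr1 window of chromosome 11 with 4 of 39, and in windows of chromosome 2 with 2 of 20 and 2 of 22. The latter holds Erich3 (2, 243615933 to 243717973, plus strand) and its neighbour Tnni3k, a cardiac troponin-interacting kinase (2, 243737346 to 244005414, minus strand), at 3.35 and 3.27 in SHRSP against 2.77, 2.68 and 2.62 in WKY (0.62, adjusted p = 0.0074). The other window of chromosome 2 holds Trim55 (−0.69, adjusted p = 0.021) and LOC682357 (0.70, adjusted p = 0.000472), and a window of chromosome 16 with 1 of 11 holds Hmgb2. Tnni3k and Trim55 were not called without SHRSP 2 (0.194 and 0.19), SHRSP 3 (0.102 and 0.263) or WKY 3 (0.0537 and 0.0703), nor Trim55 without WKY 2 (0.177). LOC108351754 was not called without SHRSP 2 (0.328) or WKY 3 (0.158), LOC102554337 without SHRSP 2 (0.173), and LOC682357 without SHRSP 3 (0.138). By chromosome the share called was highest on chromosome 20, which carries RT1, with 16 of 574 genes (2.79%, against 0.786% of all genes). The window with the most calls lay there, with 10 of 169 genes called (5.92%), 9 lower and 1 higher. All 10 were RT1 genes or Tap1.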

How the data were processed

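The authors deposited gene expression as log2-scale values, without counts, so sequencing depth is unknown and the number of animals limits precision. The submitters' processing notes for these samples name cutadapt 1.9.1, Bowtie2 2.3.4.3, HISAT2 2.1.0, StringTie 1.3.5, RSEM 1.3.1, DESeq2 and the build rn6. Notes of other samples in the series name Bowtie2 2.4.5, HISAT2 2.2.1, StringTie 2.2.1 and RSEM 1.3.3. Which of these made the v6 and v7.1 tables, and on which build, is not given in the sources used here. For v5 the authors removed a factor of unwanted variation and applied the regularized log transformation.

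The main comparison used the v7.1 table after 73 spike-in features were removed, with libraries of an animal averaged. Strain was the factor in a limma 3.58.1 fit (R 4.3.3) over all animals, which share the spread, tested two-sided with Benjamini-Hochberg adjustment at 5% FDR over all genes. No per-sample column was left unmapped (0). Main alternatives were single animals left out, batch covariates, the pair limited to batch 10, centring, a filter and other tables. RefSeq positions served to place genes in windows.

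Genes named by rule were the 12 largest calls in each direction above the table median, up to 4 called genes per list, all candidates, and up to 3 genes in each of 5 windows. The rule also asked for a call with all 3 SHRSP animals, which could not be applied in v7.1, since SHRSP 1 has no column there. The members and the 32 lists were chosen with earlier results of these data known, and genes said to be named after their values were seen are outside the rule. Strain mean files, reconstructed transcripts and transcript tables were not used here.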

Additional observations from a re-analysis of the deposited data

How the results depend on the processing

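All 60 named genes that were called kept their direction in every alternative run on the v7.1 table, but 17 were called in a fit of the 5 animals and 17 in batch 10, 28 without SHRSP 2 and 26 without SHRSP 3. These alternatives reuse the animals by which the genes were called, so a kept direction was close to fixed in advance. Cbr1, Rps25, Ifi44l, Hba-a3, Lilrb3l, LOC120093083 and LOC120097345 also kept their call in each v7.1 alternative that held them. Ifi44l, Hba-a3, Lilrb3l and LOC120093083 were not in the fit of genes above the table median. The number of calls (164, of which 74 higher and 90 lower) was 42 (18 and 24) in a fit of the 5 animals of the pair alone, 37 (18 and 19) in batch 10 and 34 (18 and 16) among genes above the table median. Leaving out single animals gave 64 to 118 calls in v7.1 (30 to 57 higher, 31 to 65 lower), and leaving out SHRSP 1 gave 123 in v6 (63 and 60) and 238 in v5 (131 and 107). With all 6 animals v5 gave 305 (126 and 179) and v6 200. A fit without SHRSP 1 in v7.1 was not run as an alternative, since that table has no such column. The v6 and v5 fits without SHRSP 1 and the v6 block were chosen after seeing the data.

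Equal replicate numbers did not pair the animals throughout. Deviations correlated at 0.21 and 0.18 for numbers 2 and 3 in v7.1, where the 2 SHRSP animals mirror each other, so these values are not independent. In v6 numbers 2 and 3 gave 0.19 and 0.18, the highest for either SHRSP animal, but number 1 gave −0.13, and SHRSP 1 correlated best with WKY 3 (0.10). In v5 numbers 1, 2 and 3 gave −0.19, 0.02 and 0.15. With a replicate block in a fit of the pair, 222 genes were called (80 higher, 142 lower) in v7.1, against 42 without the block, and 152 in v6 (57 and 95). In v7.1 WKY 1 has no partner, so the blocked differences are those without WKY 1. The block also leaves very little from which to estimate the spread, so the larger number of calls is not read as a gain. Endog was under the threshold in that v7.1 fit (−0.87, adjusted p = 0.00672), with the same limits.

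Among the called genes named, reversed directions came only from other tables. In v6 they were RT1-A1 (−0.40, −0.31 without SHRSP 1, −0.40 with the block), Hba-a3 (0.29, 0.52 and 0.29) and Cd244 (0.040, 0.054 and 0.040). In v5 they were Rps25 (0.036, 0.21 without SHRSP 1), Ybey (0.068) and, without SHRSP 1, Hba-a3 (0.019). The causes were not tested. Of the 11 named genes that were not called, 5 changed sign under some alternative, Cd36, Nppa, Stim1 and S1pr1 within v7.1.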

Other observations

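No marker of a brain region or of oligodendrocytes was called in the v7.1 table, where 0.786% of all genes were called. In lists of this size the absence of calls is not read as a result about these markers. Of the differences of all genes, 44.8% were above 0 and 55.2% below. The 10 olfactory bulb markers were all above 0 (SHRSP minus WKY, v7.1 table), with a median of 0.17 and list means of 8.20 and 7.45 in SHRSP against 7.75, 7.21 and 7.84 in WKY, so the animals of the strains overlapped. Of 11 striatum markers 10 were below 0 (median −0.26), with list means of 9.90 and 9.85 against 10.12, 10.37 and 9.83, and SHRSP had the lowest mean of the 74 strains, although SHRSP 2 and 3 were above WKY 3. The 10 cerebellum markers (median 0.02) were evenly split, and 13 hindbrain and spinal cord markers had a median of 0.03. Of 13 oligodendrocyte markers 12 were below 0 (median −0.22), at 12.64 and 12.84 against 12.92, 13.00 and 13.06, with 3 strains below SHRSP. Without SHRSP 1, 1 of 12 oligodendrocyte markers was called lower in v6 (0.66% of all genes called) and 1 of 12 in v5 (1.3%).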
